A study of Homo sapiens with 4 samples.

Results

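MHC class I antigen presentation was followed in 9 genes across the 4 libraries of the study: the light chain gene B2M, the heavy chain genes HLA-B, HLA-C, HLA-E and HLA-F, the peptide transporter genes TAP1 and TAP2, the tapasin gene TAPBP and the class I transactivator gene NLRC5. They were chosen by symbol, and all 9 were found in the deposited table of 58174 genes, each on 1 row. RNA was sequenced from 2 human lung cancer lines, H1299 and HCC827, treated for 48 h with siCDH3, which targets CDH3, or with the control siCTR. H1299 comes from a lymph node metastasis of a non-small cell lung cancer and lacks p53, and HCC827 is an adenocarcinoma line with an activating EGFR deletion. Each line and siRNA pair is 1 group with 1 library, so differences within a line lack replicates and carry no test. All 4 groups received an siRNA.

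MHC class I molecules show peptides from inside the cell to CD8+ T cells. A polymorphic heavy chain pairs with the invariant light chain, beta-2-microglobulin, in the endoplasmic reticulum, where TAP1 and TAP2 pump in peptides cut by the proteasome and tapasin holds the empty heavy chain next to the transporter. Transcription of these genes is known to respond to interferons through IRF factors, to NF-kB, and to NLRC5, which works with RFX and NF-Y factors on class I promoters. Carcinomas often have low levels of this machinery.

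Stretches of the members' promoters are shown because they carry 2 elements known in class I genes, the interferon-stimulated response element and the NF-kB site. RefSeq promoter sequences (GRCh38.p14, 250 bases before to 50 after the start) were matched for 7 members, B2M, HLA-B, HLA-C, HLA-F, TAP1, TAP2 and TAPBP. TAP1 had 2 promoters and each other member 1. A member was counted if any of its promoters matched, while the shares are over single promoters. A response-element-like pattern (TTTC, any 2 bases, TTTC) searched on both strands, as were all patterns, was in 5 of the 7 and in 3.57% of 35116 promoters. The capitals mark 1 match in each of the 5, written on the strand of the gene:
B2M (chr15:44711369-44711398, plus strand): ctaagaaaagGAAACTGAAAacgggaaagt
HLA-F (chr6:29723268-29723297, plus strand): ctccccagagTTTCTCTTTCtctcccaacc
TAP1 (chr6:32853819-32853848, minus strand): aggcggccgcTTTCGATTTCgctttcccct
TAP2 (chr6:32838778-32838807, minus strand): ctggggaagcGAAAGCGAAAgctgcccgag
TAPBP (chr6:33314079-33314108, minus strand): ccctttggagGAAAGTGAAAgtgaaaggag
The kappa B consensus, which NF-kB binds, was also in 5 of the 7, against 5.91% of all promoters, and the capitals mark it here:
HLA-B (chr6:31357336-31357365, minus strand): cgcagcgttgGGGATTCCCCactcccctga
HLA-C (chr6:31272245-31272274, minus strand): cgccgcgttgGGGATTCTCCactcccctga
B2M (chr15:44711382-44711411, plus strand): actgaaaacgGGAAAGTCCCtctctctaac
TAP1 (chr6:32853757-32853786, minus strand): gcctgttcctGGGACTTTCCgagagccccg
TAPBP (chr6:33314115-33314144, minus strand): taaccagagcGGGGATTTCCaccgcccctc
The stretch of B2M around its response-element-like match overlaps the stretch around its kappa B match, and the matches themselves do not overlap. ATTGG, the inverted CCAAT box that NF-Y binds, was in 5 of the 7 (B2M, HLA-B, HLA-C, HLA-F and TAP1) and in 34.6% of all promoters. TTCNNNGAA, a GAS-like pattern (gamma-activated sequence), was in 1 of the 7 (TAP1) against 7.66%, and TGANGTCA, a CRE-like pattern, was in 0 of the 7 against 7.72%. The GAS-like match lies in the TAP1 promoter other than the one whose stretches are shown. A match describes letters in these windows and is not evidence of binding.

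Values are TPM, which are scaled by transcript length and to a fixed sum per library, so levels can be compared between genes. The read depth is unknown. The targeted gene CDH3, for P-cadherin, was at 173 TPM with siCTR and 78.8 with siCDH3 in HCC827. In H1299 it was at 1.21 and 0.169 TPM, low in both. All 8 epithelial markers reached 5 TPM in HCC827, but 3 of 8 did so in H1299, where 5 of 6 mesenchymal markers did. Of 12 hematopoietic markers, which would mark cells rich in class I, only CD68 (121 to 142 TPM) reached 5 TPM, and the others summed to between 1.99 and 5.04 TPM per library. Fibroblast markers summed to 4.28 to 5.95 TPM and endothelial markers to 1.31 to 1.92 TPM. Genes of the mitochondrial genome took 13.5% (siCTR) and 16.4% (siCDH3) of TPM in H1299, and 36.2% and 34.4% in HCC827. Since TPM have a fixed sum, this share bears on levels compared between the lines. In bulk RNA, fewer cells of a kind and less RNA per cell cannot be told apart.

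HLA-B had the highest TPM of the 9 members in 3 of the 4 libraries, and B2M had it in HCC827 siCDH3. NLRC5 was the lowest member in every library. The members together summed to 1302 TPM with siCTR and 1301 with siCDH3 in H1299, and to 791 and 1722 TPM in HCC827. B2M makes up most of the difference between the last 2 sums. With no replicates, the order of neighbouring genes within a library cannot be set against an error.

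**Figure D1:**
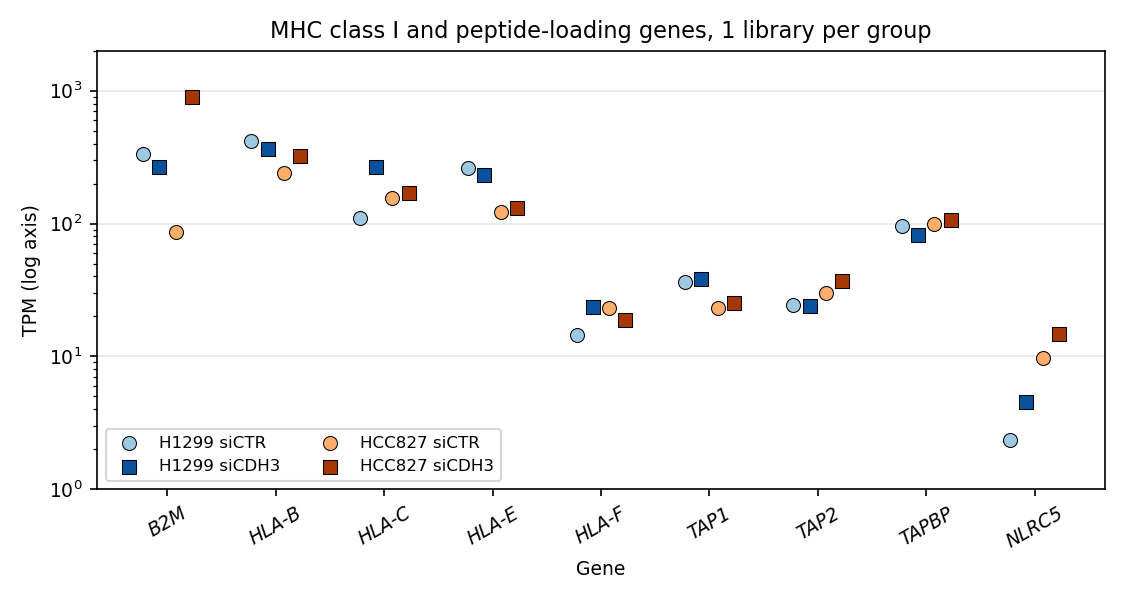
TPM of the 9 members (x axis) in the 4 libraries on a log axis; circles are siCTR, squares are siCDH3, blue is H1299 and orange is HCC827. B2M in HCC827 is the widest pair, at 86.3 TPM in siCTR and 896 in siCDH3, and HLA-C in H1299 is the next, at 111 and 267.

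B2M encodes the light chain shared by all class I molecules. In H1299 it was at 337 TPM with siCTR and 265 with siCDH3, and in HCC827 at 86.3 with siCTR and 896 with siCDH3. The HCC827 libraries thus hold the lowest and the highest of the 4 values, and both H1299 libraries lie between them. In HCC827 the siCDH3 value was 10.4-fold the siCTR value, a log2 ratio of 3.36 (log2 of TPM + 1, siCDH3 over siCTR), rank 4 of the 11043 genes that reached 5 TPM in either HCC827 library. In H1299 the log2 ratio was -0.35, against a median of -0.11 over all 11622 genes.

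B2M was also set against other genes of the same library, which does not depend on the library's total. Per summed TPM of HLA-B, HLA-C, HLA-E and HLA-F, B2M stood at 0.418 in H1299 siCTR and 0.298 in H1299 siCDH3. In HCC827 it stood at 0.159 in siCTR and 1.39 in siCDH3. B2M is itself often used as a reference gene, and it was compared with the median of 14 others, such as ACTB, GAPDH and TBP. That ratio was 1.37 and 1.17 in H1299 and 0.554 and 5.24 in HCC827, siCTR first. None of the 14 reference genes passed 2-fold in either line. Those with the log2 ratios furthest from 0 were YWHAZ, at -0.62 in H1299 and 0.83 in HCC827, and ACTB (beta-actin), at -0.57 and 0.52. Both had the same signs as B2M in each line.

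**Figure D2:**
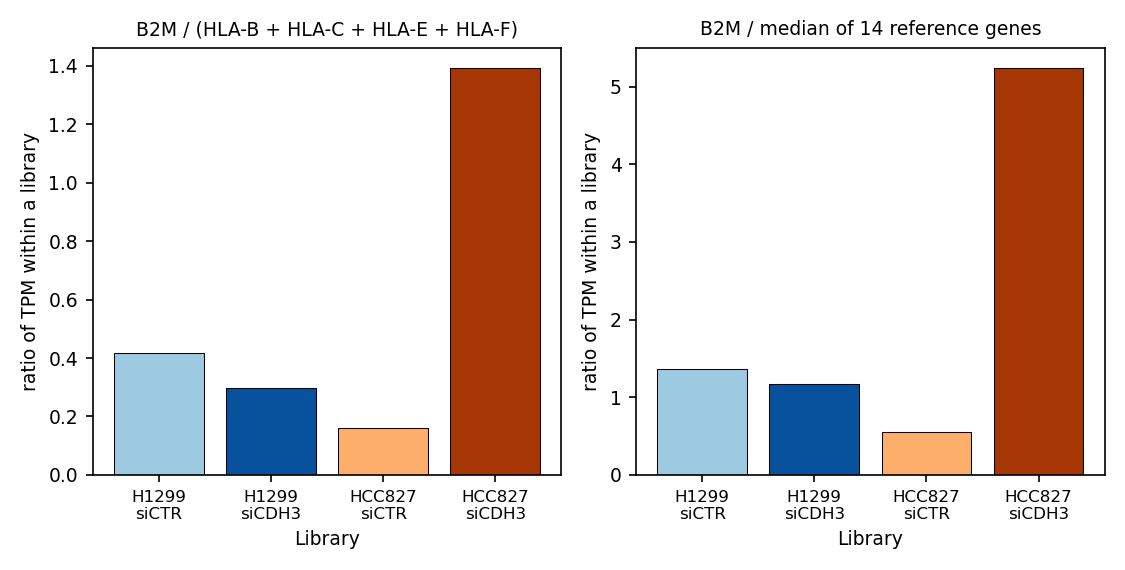
B2M TPM divided by the summed TPM of 4 heavy chain genes (left) and by the median TPM of 14 reference genes (right); each bar is 1 library, with no error bar since each group has 1 library. HCC827 siCTR is the lowest bar and HCC827 siCDH3 the highest in both panels, at 0.159 and 1.39 on the left.

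The genes on either side of B2M were both under 2-fold in HCC827. In HCC827, PATL2, which lies next to B2M on the other strand, was at 2.67 TPM with siCTR and 3.39 with siCDH3. Both values are under the 5 TPM minimum. TRIM69, a ubiquitin ligase gene on the other side, was at 5.59 and 6.47 TPM, little above that minimum. At such low levels both ratios say little. No gene of the GENCODE 29 annotation overlaps B2M, and of its 6412 distinct 50-base stretches of transcript 0 occur in a transcript of another gene.

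Other genes for class I-like proteins were also looked up. AZGP1, whose product is secreted, was at 216 TPM with siCTR and 244 with siCDH3 in HCC827. It was listed at 0 in both H1299 libraries. FCGRT, the heavy chain of the neonatal Fc receptor, had 23.5 and 21.6 TPM in HCC827 and 35.9 and 42.8 in H1299. MR1, which presents vitamin B metabolites, had 7.66 and 8.17 TPM in HCC827 and 3.98 and 1.61 in H1299, where both values are under the 5 TPM minimum. HFE, which regulates iron uptake, had 5.72 and 4.11 TPM in H1299 (log2 ratio -0.39) and 1.14 and 1.58 in HCC827, under the minimum. The 3 of these genes past the minimum in HCC827 were all under 2-fold there.

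The protein-coding genes nearest to B2M, by Euclidean distance of centred log2(TPM + 1) over the 4 libraries among 11582 genes, were TREX1, ST20-MTHFS, MEX3C, ZNF667 and AC007192.1, at distances of 1.09 to 1.27. In HCC827, TREX1, a DNA exonuclease gene, was at 0.562 TPM with siCTR and 6.75 with siCDH3. MEX3C, a gene for an RNA-binding ubiquitin ligase, was at 2.80 and 12.3 TPM, the highest value among these 5 genes. In H1299, TREX1 was at 2.48 and 4.70 TPM, a log2 ratio of 0.71, where that of B2M was -0.35. TREX1, ST20-MTHFS and AC007192.1 reached 5 TPM only in HCC827 siCDH3, so they entered the search through the library where they are high. The nearest member to B2M was HLA-B, at 2.11, further than any of the 5 nearest genes.

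The classical heavy chain genes HLA-B and HLA-C encode the molecules that present peptide to T cells. HLA-B was at 421 TPM with siCTR and 367 with siCDH3 in H1299, and at 239 and 324 TPM in HCC827. The siCDH3 library was lower in H1299 (log2 ratio -0.20) and higher in HCC827 (0.44, above 94.1% of genes). HLA-C was at 111 TPM with siCTR and 267 with siCDH3 in H1299, and at 157 and 171 TPM in HCC827. H1299 siCTR is the lowest of these and H1299 siCDH3 the highest. In H1299 this was a 2.40-fold difference, a log2 ratio of 1.26 and rank 60 of 11622 genes, while in HCC827 the log2 ratio was 0.12.

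HLA-B and HLA-C overlap in GENCODE 29, where the HLA-B model runs into HLA-C on the same strand, and their sequences are close. Of the 50-base stretches of HLA-C, 5.38% also occur in other genes (2.87% in HLA-B), and of those of HLA-B 2.72% do. These genes are highly polymorphic, and the alleles of the lines are not used here, so reads of shared stretches can be given to either gene and the split between them is uncertain. The ratio of HLA-B to HLA-C was 3.79 in H1299 siCTR and 1.38 in H1299 siCDH3, and 1.53 and 1.90 in HCC827. In H1299 their sum moved less than HLA-C alone, from 531 to 634 TPM (1.19-fold). In HCC827 the sum went from 395 to 495 TPM (1.25-fold), and HLA-C alone was 1.09-fold higher.

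The non-classical heavy chain genes behaved apart from each other. HLA-E, whose product is read by NKG2 receptors of natural killer cells, had 260 and 231 TPM in H1299 and 123 and 130 in HCC827, siCTR first, with log2 ratios of -0.17 and 0.076. HLA-F, whose product stays mostly inside resting cells, had 14.5 and 23.6 TPM in H1299 and 23.2 and 18.8 in HCC827. Its log2 ratio was 0.67 in H1299, above 97.5% of genes, and -0.29 in HCC827, above 8.37% of genes. HLA-F-AS1, an antisense gene that overlaps HLA-F, had 7.35 and 6.83 TPM in H1299 and 1.08 and 0.734 in HCC827, and without a stated strand protocol reads of the pair cannot be told apart. Over the 4 libraries HLA-F and HLA-C were nearest to each other among the members, at a distance of 0.56.

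TAP1 and TAP2 together form the peptide transporter. TAP1 had 36.2 and 38.2 TPM in H1299 and 23.2 and 25.2 in HCC827, with log2 ratios of 0.077 and 0.12. TAP2 had 24.2 and 24.1 TPM in H1299 and 30.1 and 36.8 in HCC827, with log2 ratios of -0.0092 and 0.28. The ratio of TAP1 to TAP2 was 1.49 and 1.59 in the H1299 libraries and 0.770 and 0.685 in those of HCC827, so TAP1 was above TAP2 in both H1299 libraries and below it in both HCC827 libraries. Of the 50-base stretches of TAP2, 31.3% occur in other genes, and the read-through gene AL669918.1 that overlaps it on the same strand had at most 0.698 TPM in any library. TAPBP had 96.1 and 81.3 TPM in H1299 and 99.8 and 107 in HCC827, with log2 ratios of -0.24 and 0.095.

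NLRC5, the transactivator of class I genes, was at 2.33 TPM with siCTR and 4.55 with siCDH3 in H1299, and at 9.72 and 14.8 TPM in HCC827. It was higher in the siCDH3 library of both lines, at log2 ratios of 0.74 (H1299) and 0.56 (HCC827). Both H1299 values are under the minimum of 5 TPM, so NLRC5 did not enter the counts for that line, and its ratio there depends on the pseudocount, from 0.38 with 5 added to 0.94 with 0.1 added.

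In H1299, 1 of the 8 members past the TPM minimum was at least 2-fold higher in siCDH3 (HLA-C), where 0.878% of all genes were, and 0 were at least 2-fold lower, against 1.58%. The members' median log2 ratio was -0.092 beside -0.11 over all genes. In HCC827, 1 of 9 members was at least 2-fold higher (B2M), against 1.01% of all genes, and 0 were lower, against 0.833%. Log2 ratios were above 0 for 8 of 9 members in HCC827, where 57.1% of all genes were, and for 3 of 8 in H1299, where 35.2% were. The members' median was 0.12 in HCC827 beside 0.030 over all genes. With the H1299 median set to 0, TAP2 turned positive and the count there was 4 of 8.

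**Figure D3:**
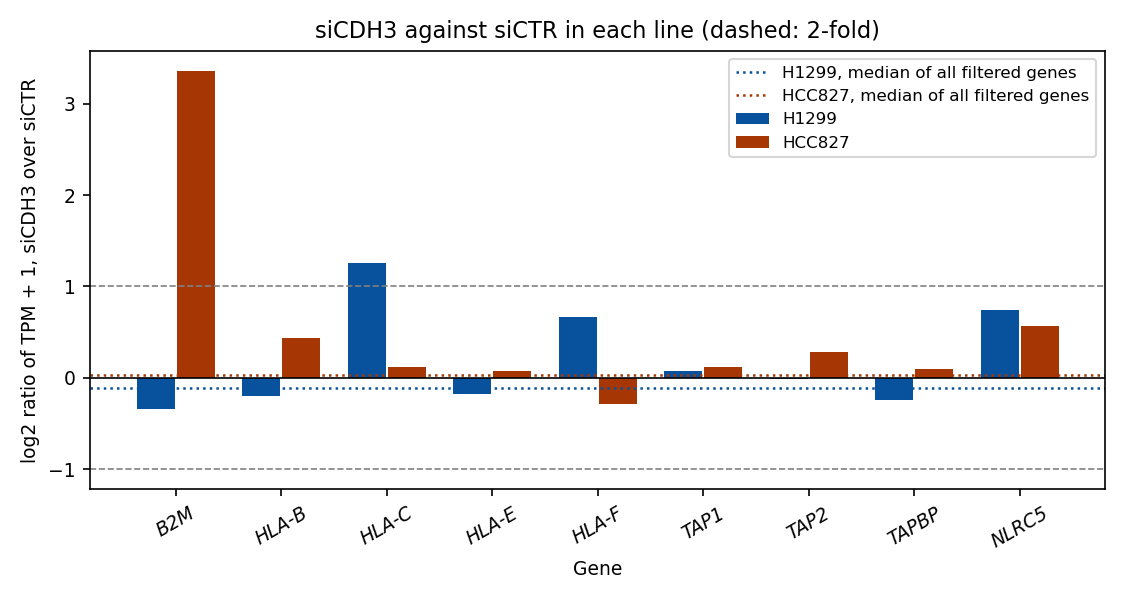
Log2 ratio of TPM + 1, siCDH3 over siCTR, for each member in H1299 (blue bars) and HCC827 (orange bars); dashed lines mark 2-fold and dotted lines the median of all filtered genes in each line. B2M in HCC827 (3.36) and HLA-C in H1299 (1.26) are the only bars past 2-fold.

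A limma fit with cell line as a block, in which the 2 lines are the replicates, called 0 of the 9 members for siCDH3, where 0.00773% of all 12941 genes were called. At an unadjusted p under 0.05 there was 1 member, NLRC5, where 4.49% of all genes passed. For NLRC5 the mean log2 difference was 0.65 (SE 0.16, limma adjusted p = 0.94), higher in siCDH3 in both lines. For B2M it was 1.51 (SE 0.87, limma adjusted p = 0.95), with opposite signs in the 2 lines. HLA-C, higher in siCDH3 in both lines, had 0.69 (SE 0.30, limma adjusted p = 0.95). Whether the lines responded differently could not be tested, as that term leaves no residual degrees of freedom.

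The genes around the members were then described, by lists of the pathway. Of 14 genes for peptide generation, 13 passed the TPM minimum in each line. In HCC827, 1 was at least 2-fold lower and 0 higher, and in H1299 0 passed in either direction. The lower gene was PSME3, a nuclear proteasome activator, at 90.6 TPM with siCTR and 30.3 with siCDH3. The interferon-inducible proteasome subunit gene PSMB9, which overlaps TAP1 on the other strand, had 28.9 and 41.7 TPM in H1299 (log2 ratio 0.52) and 49.1 and 56.0 in HCC827 (0.19). PSMB8 had log2 ratios of 0.22 and 0.12, and PSMB10 of 0.12 and 0.15, H1299 first. All 3 immunoproteasome subunit genes thus had positive ratios in both lines, each under 2-fold. Of the 13 genes of the list, 5 were above 0 in H1299 and 7 in HCC827, where 35.2% and 57.1% of all genes were.

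Of 10 genes for chaperones and loading factors, 0 passed 2-fold in either line. Calreticulin (CALR) had log2 ratios of -0.042 and -0.046, ERp57 (PDIA3) -0.15 and 0.066, and the tapasin-related editor TAPBPL -0.0066 and -0.065, H1299 first. Calnexin (CANX), which folds new heavy chains, had 466 and 327 TPM in H1299, a log2 ratio of -0.51. Of 10 genes for degradation in the endoplasmic reticulum and heavy chain turnover, 0 passed 2-fold, with list medians of -0.24 in H1299 and 0.033 in HCC827. UBE2J2, a ubiquitin-conjugating enzyme gene, was the furthest from 0 there, at -0.55 in each line.

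Of 23 regulators, 20 passed the TPM minimum in each line and 0 passed 2-fold. Above 0 were 7 in H1299, a share like the 35.2% of all genes, and 15 in HCC827, where 57.1% of all genes were. The list medians were -0.11, as over all genes, and 0.080. In HCC827 the class I activator IRF1 had 25.1 and 37.4 TPM (log2 ratio 0.56), the X-box factor RFX5 21.4 and 39.5 (0.86), and the NF-kB subunit RELA 49.9 and 70.5 (0.49). CREB1 went the other way there, with 18.6 and 9.42 TPM (-0.91). In H1299 IRF1 had a log2 ratio of 0.039 and RFX5 -0.30. ATF1, a relative of CREB1, had -0.55 in H1299 and 0.077 in HCC827. IRF9, part of the interferon-activated complex ISGF3, had 0.95 in H1299 and 0.081 in HCC827.

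Interferon-stimulated genes, which class I genes often accompany, were mostly above the median of all genes. Of those past the TPM minimum, 24 of 26 in H1299 and 31 of 36 in HCC827 were above it, with list medians of 0.26 and 0.16, and 1 was at least 2-fold higher in each line (IFI27 in H1299 and SAMD9L in HCC827). BST2 (tetherin), which holds virus particles at the cell surface, was at 0.96 (H1299) and 0.15 (HCC827) on the log2 ratio scale, and IFI44L at 0.92 and 0.23. IFI6, a mitochondrial antiviral protein gene, had 95.0 and 176 TPM in H1299 (0.89) and 68.0 and 81.2 in HCC827 (0.25). OAS1, a sensor of double-stranded RNA, had log2 ratios of 0.81 and 0.30. These list counts repeat a pattern already known for these libraries and are not independent support. Of 9 MHC class II genes, 5 passed the minimum in HCC827, all between 0.12 and 0.23, and 1 in H1299, HLA-DMA, at -0.47.

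**Figure D4:**
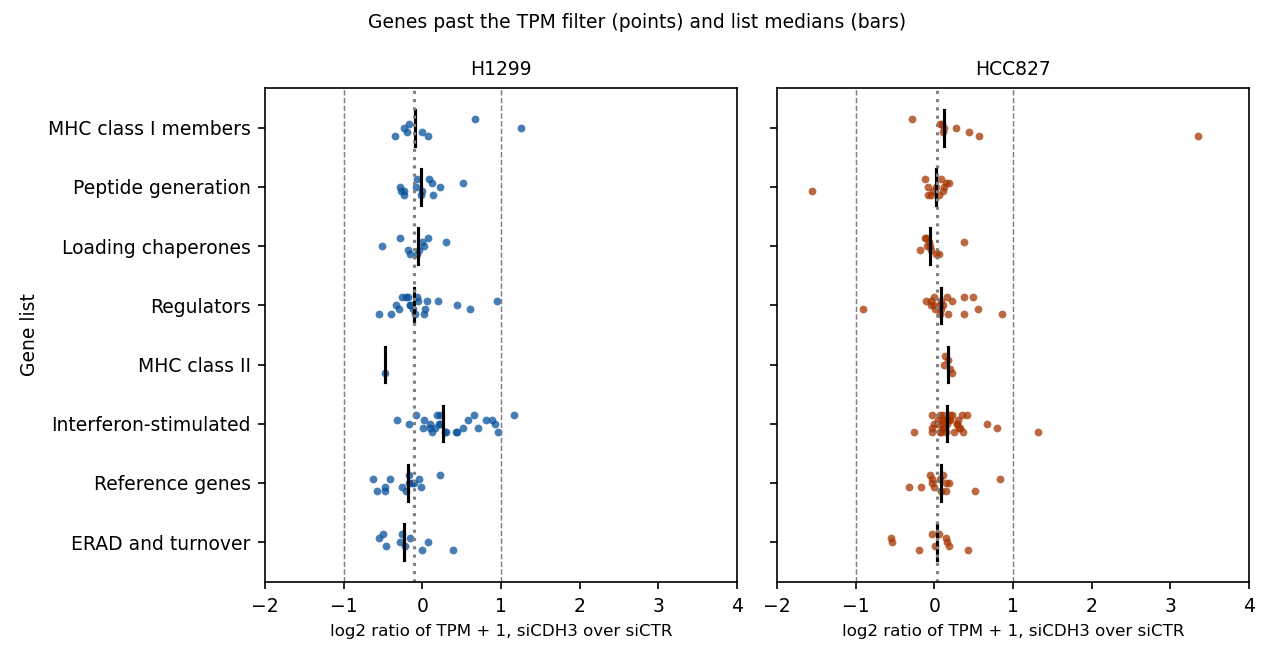
Log2 ratio of TPM + 1, siCDH3 over siCTR, in H1299 (left) and HCC827 (right) for 8 gene lists; each point is a gene past the TPM minimum, black bars are list medians, the dotted line is the median of all genes and dashed lines mark 2-fold. B2M, at 3.36 among the HCC827 members, lies apart from every other point, and PSME3 is the only point beyond 2-fold lower in HCC827.

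The control libraries were compared to give the members' levels in each line under the control siRNA. The log2 ratio of HCC827 siCTR over H1299 siCTR had a median of -0.39 over all 12601 genes, and the members are given relative to it where stated. NLRC5 was 4.18-fold higher in HCC827 in TPM, and its log2 ratio on TPM + 1, which the size rules use, was 1.69. It was the 1 member at least 2-fold higher, where 13.5% of all genes were. At 2.33 TPM in H1299 siCTR it was under the 5 TPM minimum. It thus entered through the line where it is high, and its count is no support for the members as a set. B2M (-1.95) and HLA-E (-1.07) were at least 2-fold lower, where 27.8% of all genes were. With the median of all genes set to 0, B2M stayed past 2-fold lower, HLA-E did not, and HLA-F passed 2-fold higher. HLA-B (-0.81) and TAP1 (-0.62) were lower and HLA-C (0.49), HLA-F (0.64), TAP2 (0.30) and TAPBP (0.054) were higher in HCC827, and all kept these signs under that centring. That is 5 of 9 members above 0, NLRC5 among them, where 35.7% of all genes were.

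Over both siRNAs, limma called 3 of the 9 members for the line. That share is below the 62.9% of all genes that were called (21.5% higher and 41.3% lower in HCC827). Each line entered with 1 siCTR and 1 siCDH3 library, so neither had repeat libraries under the same siRNA. The SE for the line thus rests on how far the 2 lines diverged in their siCDH3 changes, moderated by limma toward a value shared over all genes. For TAP1 it was 0.15 in the main fit and 0.017 with no filter, so such SEs largely reflect the shared value. The adjusted p-values for the line therefore do not measure the spread of repeat cultures. The all-gene split depends on the scaling, with 4647 higher and 3822 lower of 13771 genes in TPM without mitochondrially encoded genes, and 3760 and 4294 after quantile normalization. NLRC5 was higher in HCC827 by 1.60 (log2, SE 0.16, limma adjusted p = 0.00106). It reached 5 TPM only in HCC827, so it entered the fit through the line where it is high, and its call is no support for the members as a set. HLA-E was lower by -0.95 (SE 0.16, limma adjusted p = 0.00637) and TAP1 by -0.60 (SE 0.15, limma adjusted p = 0.0218). In TPM rescaled without mitochondrially encoded genes the TAP1 call ended (limma adjusted p = 0.229), while TAP2 (0.0110) and TAPBP (0.0278) were called higher in HCC827. B2M, at -0.098 (SE 0.87, limma adjusted p = 0.93), passed no threshold, and its 2 HCC827 libraries lie on either side of both H1299 libraries.

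The other genes of the pathway were set beside the members in the same limma test. Of 13 peptide generation genes limma called 5 higher and 4 lower in HCC827, beside 21.5% and 41.3% of all genes. PSMB10 (2.39, SE 0.15, limma adjusted p = 0.000273) and PSMB8 (1.65, SE 0.15, limma adjusted p = 0.000885) were among those higher. LNPEP (-1.16, SE 0.16, limma adjusted p = 0.00331) and TPP2 (-0.97, SE 0.16, limma adjusted p = 0.00563) were among those lower. Of the class II genes, 4 of the 5 in the fit (CD74, HLA-DRA, HLA-DRB1 and HLA-DMB) reached 5 TPM only in HCC827, so only their levels are given. HLA-DRA, for example, was at 37.0 TPM in the HCC827 control library and 0.296 in that of H1299. CIITA, the class II transactivator and a relative of NLRC5, had 4.26 and 0.0567 TPM in these libraries.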

How the data were processed

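RNA of 4 libraries, 1 per group, was sequenced from Illumina libraries, as the labels' protocols state. The authors deposited 1 table of TPM values with 1 column per library. The genome build is hg19, per the submitters' processing notes. The aligner, quantification tool, strandedness and depth were not given in the sources used here. TPM keep no depth, so no counting interval or detection floor is given. Of the gene identifiers 99.4% are in GENCODE 29, which is on a later assembly and was used for gene types, overlaps and shared 50-base stretches. The promoters are RefSeq's on GRCh38.p14.

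Log2 ratios of TPM + 1 were taken for genes reaching 5 TPM in either library compared, and 2-fold (log2 of 1 or -1) was the size rule. The pseudocount understates changes of low genes. For the 12941 genes reaching 5 TPM in any library, log2(TPM + 1) entered limma 3.58.1 (R 4.3.3) with terms for cell line and siRNA, 1 residual degree of freedom, and Benjamini-Hochberg adjustment over all genes at 0.05. The labels name the line of each library, which gives the pairing. They do not say that libraries came from separate cultures, so p-values measure only the spread between these libraries, moderated over all genes. On simulated data of 12941 genes with 200 changed, the siRNA fit recovered 76% of 4-fold and 1% of 2-fold changes, with 5 false calls.

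The members, lists and tests were chosen with earlier results of these data known. Named are CDH3, all members, the annotated neighbours of B2M, the 5 genes nearest to B2M, PSMB8, PSMB9, PSMB10, CALR, PDIA3, TAPBPL and IRF1, and up to 6 genes per list with the largest ratios, of which the text names some. A further gene of this rule is not reported here. Other named genes (overlapping genes, the reference genes given as examples, HLA-DRA, CIITA and the class I-like genes) were chosen after their values were seen. Alternatives were other pseudocounts, filters, size rules and scalings, a limma trend, fits without the block or the siRNA term, and leaving out a library.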

Additional observations from a re-analysis of the deposited data

Results flagged for a closer look

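In 6 of the 9 members the log2 ratio of siCDH3 over siCTR had opposite signs in the 2 lines, with 1 library per group, and the difference was not tested. Of the 8 members past the 5 TPM minimum in both lines these are 6, beside 49.6% of 9724 genes past it in both lines. HCC827 minus H1299, it was 3.71 for B2M, 0.63 for HLA-B, 0.33 for TAPBP, 0.29 for TAP2, 0.25 for HLA-E and -0.96 for HLA-F. The TAP2 ratio in H1299 lay at -0.0092 and turned positive in 3 of 9 settings. For the other 5 members each sign was kept in all 9 settings of pseudocount, filter and scaling. No cause was tested.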

How the results depend on the processing

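The call of B2M in HCC827 kept its direction and stayed past 2-fold under all 9 settings of pseudocount, filter and scaling (log2 ratio 3.30 to 3.45), as did HLA-C in H1299 (1.23 to 1.37). A 4-fold rule on TPM + 1 left 0 members higher in H1299, where 12 of 11622 genes were. Between the control libraries it left 0 higher and 0 lower, where 906 and 1293 of 12601 genes were. A 1.5-fold rule gave 2 members higher in H1299, where 373 of all genes were. Between the controls it gave 2 higher and 4 lower, where 2445 and 5345 of all genes were. In H1299 the members' median was 0.015 with the median of all genes set to 0 and 0.038 in TPM without mitochondrially encoded genes, where 5 members were above 0. Between the control libraries the members' median was -0.28 with a filter at 20 TPM, which left 0 members higher because it drops NLRC5. There it was 0.45 after centring, 0.49 without mitochondrial genes and 0.42 with quantile normalization; the first 2 gave 2 members higher, and all 3 gave 1 lower. B2M over HLA-B and HLA-C alone was 0.634 and 0.418 in H1299 and 0.218 and 1.81 in HCC827, and B2M over the geometric mean of the reference genes 1.07, 0.996, 0.460 and 4.42 in the same order.

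For siCDH3, limma called 0 members and at most 1 of all genes in each of 9 other fits. The fit without the cell line block (no pairing) was among them. There 0 genes passed and 0 members had an unadjusted p under 0.05. Leaving out a library leaves the blocked fit no residual degrees of freedom and was not run. For the line, 0 members were called with no filter, where 24 of 58174 genes were called higher and 27 lower. Fits without the siRNA term and without 1 library, whose lone sample is assumed to vary like the others, were also run. Without HCC827 siCTR the line difference of B2M was 1.58 (adjusted p = 0.0377), and without HCC827 siCDH3 -1.78 (adjusted p = 0.0323), so limma called it in either direction. It reversed also without H1299 siCTR (0.075), without mitochondrial genes (0.29) and with quantile normalization (0.31). HLA-C was called lower without H1299 siCTR (-0.70, adjusted p = 0.0297) and reversed without H1299 siCDH3 (0.56, adjusted p = 0.0426), without mitochondrial genes (0.32) and with quantile normalization (0.29), and HLA-F without H1299 siCTR (-0.17). HLA-B passed with a limma trend (adjusted p = 0.0488). Over all fits the line's adjusted p ranged from 0.0323 to 1 for B2M, 0.0488 to 0.851 for HLA-B, 0.0297 to 1 for HLA-C, 0.119 to 1 for HLA-F, 0.00159 to 0.286 for HLA-E, 0.0118 to 0.229 for TAP1, 0.0110 to 0.517 for TAP2, 0.0278 to 0.914 for TAPBP and 0.000868 to 0.184 for NLRC5. Summing rows of a symbol was not run, since each member has 1 row. The depth behind low TPM is unknown.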
